A study of Sus scrofa with 9 samples.

Results

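Genes of pig fat cell precursors were ordered by whether their level in control cells lay between the levels in cells that overexpressed the antisense RNA lnc*PLAAT3*-AS and in cells treated with an siRNA against it. A gene whose control mean lay strictly between both other means is called graded here. The members were found in 2 steps. Overexpression was first compared with siRNA, which gave 2380 changed genes among 12721 tested (18.7%), from 16562 genes in the table. The mean of the control libraries was then placed against both group means, and 1821 of the 2380 changed genes (76.5%) were graded. Of these, 982 were higher after overexpression (7.72% of tested genes) and 839 were higher after siRNA (6.60%). Changed genes had an adjusted p below 0.05 in the quasi-likelihood test of edgeR and differed by 2-fold or more. The adjusted p alone was passed by 66.7% of tested genes, and in 72.5% no overexpression library overlapped the range of the siRNA libraries.

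The cells were primary preadipocytes, fibroblast-like cells from which fat cells form, taken from the back fat of female Rongchang piglets and profiled by bulk RNA sequencing. There were 3 groups of 3 libraries. The overexpression group (genotype label Overexpression) received a plasmid with lnc*PLAAT3*-AS, the siRNA group (genotype label inhibition) received an siRNA against it, and the control group (genotype label WT) is a blank control in the series text and a negative control in the paper. All 9 libraries were labelled Day 8 of adipogenic differentiation, which every group had received as insulin, 3-isobutyl 1-methylxanthine and dexamethasone. All cells came from the same pig in what the paper calls 3 independent repeats, so p-values measure at most the spread between cultures of 1 animal. The 3 groups are not doses of 1 agent, since one received a plasmid and another an siRNA, and cells with an empty plasmid were not analysed here. The level of lnc*PLAAT3*-AS was not analysed here either, so the labels were not checked against its level. The paper reports, from qRT-PCR of transfected cells, a lower level after the siRNA and a higher level after the plasmid. Total counts lay between 17099182 and 17434444 per control library, between 17276056 and 17495882 per overexpression library and between 16724902 and 17130200 per siRNA library. In bulk libraries, fewer cells of a type and less RNA per cell cannot be told apart.

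Preadipocytes become fat cells when hormones induce the factors *CEBPB* and *CEBPD*, which are followed by *PPARG* and *CEBPA*, the pair that switches on the genes of lipid storage. Cultured stromal cells of fat also carry contractile fibres and secrete collagen, and under inflammatory signals the factor NF-kB drives their cytokine and chemokine genes. Lnc*PLAAT3*-AS is transcribed antisense to *PLAAT3*, which encodes a phospholipase that is abundant in fat and can release arachidonic acid, the raw material of prostaglandins. The study treats lnc*PLAAT3*-AS as a sponge for miR-503-5p. The comparison here asks which genes followed the order of that RNA that the labels imply, from siRNA through control to overexpression or the reverse.

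In both directions most changed genes were graded. Of 1213 genes higher after overexpression (9.54% of those tested), 982 (81.0%) had the control between, in 193 the control was above both groups and in 38 it was below both. Of 1167 genes higher after siRNA (9.17% of those tested), 839 (71.9%) had the control between, in 31 it was above both and in 297 it was below both. Over all 12721 tested genes the control mean lay between the other means for 47.8%, above both for 25.8% and below both for 26.4%, and it lay between for 41.2% of the 10341 genes that were not called. Changed genes were chosen for a gap of 2-fold or more, and a wider gap leaves more room for the control. The higher share among them is therefore partly set by the rule and is no test. Among changed genes it lay above both in 9.41% and below both in 14.1%. A stricter order, with all 3 control libraries between all 3 libraries of each other group, held for 619 of the 982 genes (63.0%) and for 493 of the 839 (58.8%). That order held for 17.5% of all tested genes, 9.27% with siRNA lowest and 8.20% with siRNA highest, which were not chosen for a wide gap. Control replicate 3 was the control library nearest to the siRNA end in 520 of the 982 graded genes (53.0%) and in 502 of the 839 (59.8%), and without it 990 and 840 genes were graded. Placing the control at least 1.5-fold from both other means left 220 (22.4%) and 191 (22.8%) genes.

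Within the graded genes the larger part of the difference lay between control and siRNA. The position of the control was computed on the scale log2(CPM + 0.5), where CPM is a count scaled to the size of its library, with 0 at the siRNA level and 1 at the overexpression level. The median position was 0.717 in the genes higher after overexpression (quartiles 0.555 and 0.843) and 0.732 in the genes higher after siRNA (quartiles 0.554 and 0.862). The control was nearer to overexpression, with a position over 0.5, in 794 (80.9%) and 668 (79.6%) genes. In the genes higher after overexpression the median step was 0.42 on the log2 scale from control to overexpression and 0.96 from siRNA to control, and in the genes higher after siRNA the sizes of the same steps were 0.44 and 1.05. Both steps use the same control libraries. Positions under 0.25, where most of the difference lay between overexpression and control, were found in 49 and 46 genes. Graded genes had a lower median level than all tested genes, with a mean over the 9 libraries at a median of 5.51 CPM in the first direction and 10.02 CPM in the second, against 19.6 CPM over all tested genes. At least 4-fold differences were seen in 410 and 335 graded genes, and at least 16-fold in 108 in each direction. Counts that were not whole, or a repeated symbol, made 68 and 69 of the graded genes uncertain, because such genes may share reads with another gene.

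**Figure D1:**
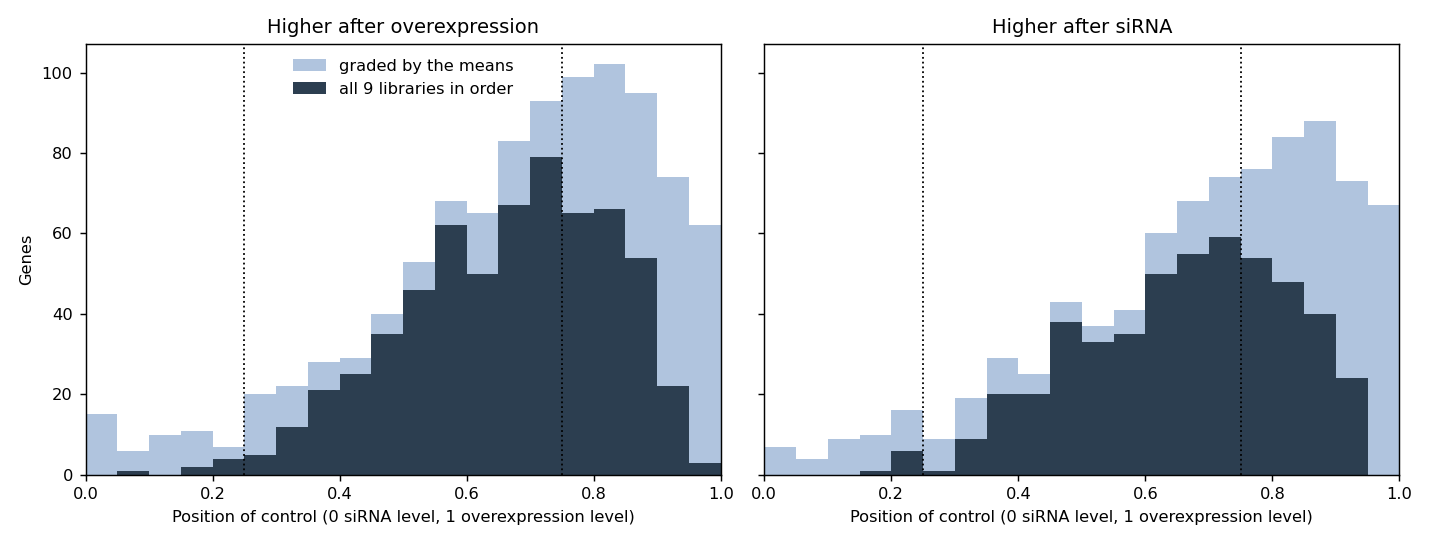
Number of graded genes (y axis) by the position of the control between the siRNA level (0) and the overexpression level (1) on the log2(CPM + 0.5) scale (x axis), for genes higher after overexpression (left) and higher after siRNA (right). Light bars are all graded genes and dark bars those with all 9 libraries in order, dotted lines mark 0.25 and 0.75, and the medians of 0.717 and 0.732 lie right of the middle in both panels.

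The 8 largest graded differences in favour of overexpression were led by *DES* and included *COL11A1* and *NCAM1*. *DES*, which encodes the muscle intermediate filament desmin, stood at 0.537, 0.899 and 0.757 CPM in the siRNA libraries, 735, 796 and 639.6 CPM in the control libraries and 1384, 1343 and 1336 CPM in the overexpression libraries. The siRNA libraries were close to zero, and the 3 groups did not overlap. The log2 difference between overexpression and siRNA was 10.84 (standard error 0.133, adjusted p = 4.85e-23 from the quasi-likelihood test of edgeR), of which 9.94 lay between siRNA and control and 0.90 between control and overexpression. *COL11A1*, a chain of the minor fibril collagen XI, was at 11.2, 11.3 and 12 CPM after siRNA, 208, 205 and 178 CPM in the control and 702, 688 and 669 CPM after overexpression. Its groups were also separate, and its difference of 5.90 (standard error 0.0832) was more evenly divided, with steps of 4.10 and 1.80. *NCAM1*, a cell adhesion molecule of nerve and muscle precursors, gave 0.836, 1.2 and 1.4 CPM after siRNA, 29.8, 32.5 and 28.6 CPM in the control and 109, 104 and 109 CPM after overexpression. The difference was 6.54 on the log2 scale (standard error 0.113, steps 4.72 and 1.83).

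*SFRP2*, a secreted modulator of Wnt signals, stood at 54.7, 55.9 and 46.7 CPM after siRNA, 2602, 2579 and 2757 CPM in the control and 3029, 2992 and 3084 CPM after overexpression. Control and overexpression were close, although no library of one reached the other, and the position of the control was 0.966 (log2 difference 5.86, standard error 0.0802). *GDF6*, a ligand of the BMP family, had 0.179, 0.0599 and 0.0582 CPM after siRNA, 7.17, 8.46 and 6.77 CPM in the control and 15.2, 16.5 and 16.6 CPM after overexpression, a log2 difference of 7.25, or 7.92 without siRNA replicate 1. A lone value in brackets after a gene is its log2 difference, overexpression minus siRNA, from the same fit. The remaining genes of this rank were *FNDC1* (6.62), which encodes a protein with fibronectin domains, *CPXM2* (6.05, or 6.75 without siRNA replicate 3), a carboxypeptidase relative, and the Wnt antagonist *DKK2* (5.80). In all 8 of these genes every siRNA library was lowest and every overexpression library highest, which the rule for naming them required.

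**Figure D2:**
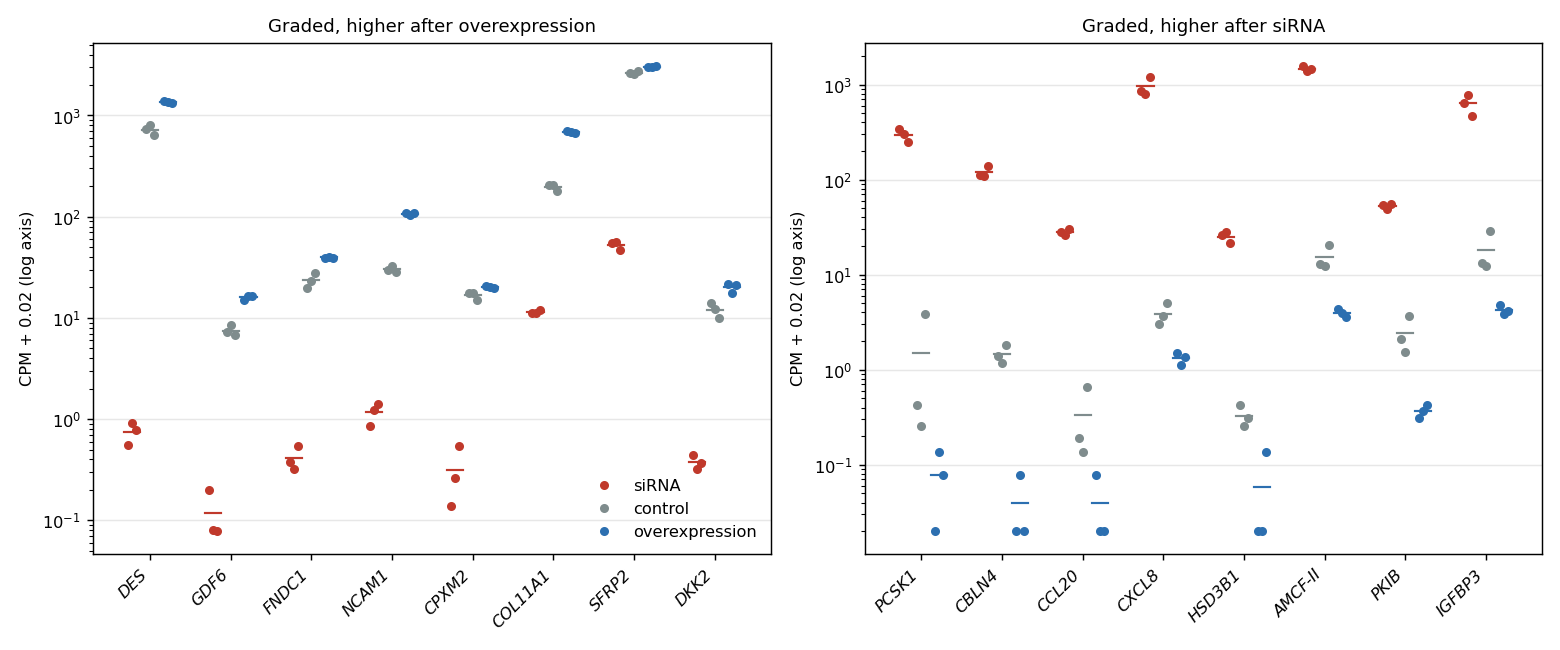
Level in each library, as CPM + 0.02 on a log axis (y), of the 8 graded genes with the largest difference in each direction (x), with 1 point per library and a bar at the group mean. *DES* runs from under 1 CPM after siRNA to between 1336 and 1384 CPM after overexpression, and *CXCL8* from between 1.09 and 1.5 CPM after overexpression to between 796 and 1208 CPM after siRNA.

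Called genes of the smooth muscle contractile apparatus were all higher after overexpression. Of 25 smooth muscle contractile genes that the files hold, 24 were tested, and 15 were higher after overexpression, 0 were higher after siRNA and 9 were not called. Over all tested genes 9.54% were called in this direction. The median log2 difference of the list was 1.69 against -0.01 over all tested genes. In 13 of the 15 the control lay between, with a median position of 0.872. *CNN1*, which encodes calponin of the smooth muscle fibre, stood at 16.2, 16.6 and 17.5 CPM after siRNA, 269, 309.7 and 306 CPM in the control and 446, 462 and 441 CPM after overexpression, so that the siRNA libraries were far below the rest (log2 difference 4.74, standard error 0.0765, adjusted p = 1.93e-21 from edgeR). *ACTA2*, smooth muscle actin, had 485, 531 and 501 CPM after siRNA, 6018, 6185 and 6059.9 CPM in the control and 6994, 6868 and 6913 CPM after overexpression, with a control position of 0.951, and is uncertain because its counts were not whole. *SYNPO2*, an actin-bundling protein of muscle, was at a position of 0.918 (log2 difference 3.84). The control of *MYH11* lay elsewhere. *MYH11*, the smooth muscle myosin heavy chain, had 4.78, 3.42 and 3.55 CPM after siRNA, 7.75, 11.3 and 7.29 CPM in the control and 30.8, 34.1 and 31.8 CPM after overexpression, so its control libraries were nearer to siRNA (position 0.37, log2 difference 3.04). The exceptions to the order were *TAGLN* and *MYL9*, whose control libraries lay above both groups, at 4129.6, 4636 and 4758 CPM for *TAGLN* against 3966, 4054 and 4035 CPM after overexpression and 969.6, 1102 and 1028 CPM after siRNA.

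Called genes of striated muscle were mostly higher after overexpression. Of 37 skeletal and cardiac muscle genes that the files hold, 17 were tested, and 9 were higher after overexpression, against 9.54% of all tested genes, 7 of them graded. Another 7 were not called, and *MYOM1* was graded and higher after siRNA. The median log2 difference of the list was 2.76, against -0.01 for overexpression minus control and 2.13 for control minus siRNA. Besides *DES*, the graded genes included *RYR2*, the calcium release channel of the sarcoplasmic reticulum, at 0.358, 0.479 and 0.524 CPM after siRNA, 2.47, 1.34 and 2.22 CPM in the control and 5.29, 3.61 and 5.16 CPM after overexpression. Its groups did not overlap, and the log2 difference was 3.35 (standard error 0.281, position 0.571). *ACTA1*, skeletal muscle actin, had 3 counts after siRNA and 80 after overexpression, a ratio of 25.9 with a 95% counting interval of 8.55 to 128.3, which covers counting error only. Its fitted log2 difference was 4.54, or 7.73 without siRNA replicate 3. *XIRP1*, a protein of the actin cytoskeleton in striated muscle, had a log2 difference of 4.07. *ACTN2*, sarcomeric actinin, was also graded by its means (1.86, position 0.971), with overlapping control and overexpression libraries, and 1 of 9 fits with a library left out moved its control outside. *MYL1* (5.75, or 7.26 without siRNA replicate 3) and *MYOZ2* had the control above both groups, as did *ACTC1*, cardiac actin, whose difference between overexpression and siRNA (3.02) was not called (adjusted p = 0.0611 from edgeR). *ACTC1* was called in the fits without control replicate 2 or control replicate 3, where its adjusted p from edgeR went down to 7.36e-07, and also with DESeq2, without TMM scaling, with the control libraries left out and with the replicate block. Its adjusted p reached 0.158 in the other fits that left out 1 library. The muscle-determining factors *MYOD1*, *MYOG* and *MYF5* had counts summing to 0 in the siRNA group, to 0, 7 and 0 in the overexpression group and to 4, 15 and 1 in the control group, and were not tested. Most of the other untested genes of the list also had their highest count, though a low one, in the control. The summed level of the 17 tested genes was 21.3 to 23.8 CPM after siRNA, 674 to 842 CPM in the control and 1378 to 1424 CPM after overexpression, most of it *DES* in the control and overexpression libraries.

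Most tested pericyte genes were also higher after overexpression. Of 8 tested, 5 were higher after overexpression, against 9.54% of all tested genes, 1 was higher after siRNA and 2 were not called, with a median log2 difference of 1.8. All of the 5 were graded in every library: *CSPG4* (2.47), the NG2 proteoglycan, *NOTCH3* (1.88), the Notch receptor of mural cells, *MCAM* (3.65, or 4.37 without siRNA replicate 1), an adhesion molecule of vessel walls, and *ABCC9* (2.55) with *KCNJ8*, which encode both subunits of a potassium channel. *RGS5*, another marker of pericytes, went the other way, with 12.7, 11.9 and 7.63 CPM after siRNA, 0.633, 0.918 and 1.04 CPM after overexpression and 0.287, 0.759 and 1.4 CPM in the control, whose mean moved between the others without control replicate 1 or overexpression replicate 3. Called genes of calcium channels and calcium handling were mostly higher after overexpression, but the list as a whole was not shifted. Of 28 tested genes of calcium channels and calcium handling, 12 were higher after overexpression and 3 after siRNA, against 9.54% and 9.17% of all tested genes, and 13 were not called, with a median log2 difference of 0.04. Of the called genes 11 and 2 were graded. *CACNA1H*, a low-voltage calcium channel, had 3.76, 4.26 and 3.09 CPM after siRNA, 39.1, 39.8 and 34.2 CPM in the control and 54.9, 51.4 and 53.5 CPM after overexpression (log2 difference 3.85, standard error 0.104). *CASQ2*, the calcium-binding protein of the sarcoplasmic reticulum, was graded by its means only (3.23), since its control and overexpression libraries overlapped. *TRPC6*, a calcium-permeable channel, was graded by its means only in the other direction (-2.89), with the control close to overexpression (position 0.967). Of 20 tested cadherins and protocadherins, 13 were not called and the median log2 difference was 0.01. The 6 that were higher after overexpression and the 1 higher after siRNA, against 9.54% and 9.17% of all tested genes, were graded in every library. They were led by *PCDH1* (3.96) and *FAT3* (3.62, position 0.3), with *PCDH9* at 1.95 and *PCDH17* at -2.56.

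The matrix and stromal genes of the preadipocyte were divided between both directions. Of 22 tested, 10 were higher after overexpression (9 graded) and 6 after siRNA (6 graded), against 9.54% and 9.17% of all tested genes, and their median log2 difference was 0.05. *COL1A1*, the main chain of collagen I, was at 15765, 17658 and 16982 CPM after siRNA, 46472, 51172 and 48295 CPM in the control and 64443, 65396 and 64657 CPM after overexpression, with no overlap between groups (log2 difference 1.95, standard error 0.0605). *MFAP5*, a microfibril protein and marker of early fat progenitors, had a log2 difference of 4.19, the endosialin gene *CD248* one of 2.26, and *ZNF423*, a factor that commits stromal cells to the fat lineage in mice, one of 1.95 (position 0.581). The genes higher after siRNA were *COL6A3*, *DPP4*, *NT5E* (uncertain), *POSTN* and the small proteoglycans *DCN* and *LUM*, all graded in every library.

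Genes of Wnt, BMP and semaphorin signals were called in both directions. Of 27 tested Wnt and BMP modulators, 5 were higher after overexpression (5 graded) and 10 after siRNA (8 graded), against 9.54% and 9.17% of all tested genes, with a median log2 difference of -0.42. *WNT5A*, a ligand of the non-canonical pathway, stood at 5, 5.91 and 6.03 CPM after overexpression, 11.5, 12 and 23.9 CPM in the control and 483, 475 and 539 CPM after siRNA. Its siRNA libraries were far above the rest and control replicate 3 was the highest control library (log2 difference -6.46, standard error 0.294, adjusted p = 1.05e-06 from edgeR). *WNT11* (-4.62) was graded by its means only. Of 24 tested semaphorins, plexins and neuropilins, which guide growing axons and vessels, 6 were higher after overexpression and 6 after siRNA, against the same shares of all tested genes, the median log2 difference was -0.04, and all 12 were graded except *SEMA4D*, which had the control below both. They included the receptor *PLXNA4* (3.59) on the overexpression side, and *SEMA5A* (-2.84, uncertain), *SEMA3A* (-2.72) and *SEMA7A* (-2.44) on the siRNA side.

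The largest graded differences in favour of siRNA were led by *PCSK1* and *CBLN4*, which had almost no counts after overexpression. *PCSK1*, a convertase that cuts prohormones, stood at 0, 0.115 and 0.058 CPM after overexpression, 0.402, 0.233 and 3.85 CPM in the control and 339, 304 and 248 CPM after siRNA. Control replicate 3 was above the other control libraries, and no groups overlapped. In sum *PCSK1* had 3 counts after overexpression and 15002 after siRNA, a ratio of 5146 with a 95% counting interval of 1760 to 24960. The fitted log2 difference was -12.16 (standard error 0.72), or -13.00 without overexpression replicate 2, and such fitted values depend on how near-zero counts are handled. *CBLN4*, a secreted organizer of synapses, had 1 count after overexpression and 6071 after siRNA, a ratio of 6247 (interval 1121 to 246800, log2 difference -12.14, or -14.0 without overexpression replicate 2). In *HSD3B1*, an enzyme of steroid hormone synthesis, the counts were 2 and 1273 and the ratio was 655 (interval 180.9 to 5414, log2 difference -9.11, or -11.75 without overexpression replicate 3). *IGFBP3*, which binds insulin-like growth factors, was at 4.77, 3.84 and 4.17 CPM after overexpression, 13.3, 12.3 and 29.1 CPM in the control and 645, 786 and 467 CPM after siRNA, again with control replicate 3 nearest to siRNA (log2 difference -7.21, standard error 0.452). *PKIB*, an inhibitor of protein kinase A, had a log2 difference of -7.24.

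Inflammatory genes were higher after siRNA almost throughout the list, and most were graded. Of 24 tested genes of NF-kB and the inflammatory response, 21 were higher after siRNA, against 9.17% of all tested genes, and 0 after overexpression, with a median log2 difference of -3.17. The control lay between in 18 of the 21, in every library for 13, at a median position of 0.845. Among chemokine genes, which code for signals that draw leukocytes, *CXCL8* had 1.5, 1.09 and 1.33 CPM after overexpression, 2.98, 3.62 and 4.96 CPM in the control and 859.7, 796 and 1208 CPM after siRNA. The siRNA libraries were the highest by far, and the control libraries lay just above those of overexpression (log2 difference -9.51, standard error 0.278, adjusted p = 9.22e-09 from edgeR). *AMCF-II*, a pig chemokine of neutrophils, stood at 4.31, 3.9 and 3.59 CPM after overexpression, 12.9, 12.4 and 20.3 CPM in the control and 1571, 1376 and 1473 CPM after siRNA (-8.55). *CCL20* had 1 count after overexpression and 1424 after siRNA, a ratio of 1465 (interval 262.6 to 57920), with a fitted log2 difference of -10.05, or -11.91 without overexpression replicate 1.

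Cytokine genes of this list were graded as well. *IL6*, which signals inflammation to liver and immune cells and was named after its values were seen, had 16.1, 15 and 13.3 CPM after overexpression, 22.5, 27.3 and 47.3 CPM in the control and 919, 959 and 946 CPM after siRNA. Its groups were separate, with control replicate 3 the highest of the control libraries (log2 difference -5.99, standard error 0.289). *CSF3*, the granulocyte growth factor, was graded by its means only, at 0.0575, 0 and 0.29 CPM after overexpression, 0.115, 0.233 and 0.175 CPM in the control and 16.7, 18.8 and 33.7 CPM after siRNA (-7.56, or -9.32 without overexpression replicate 3). *CSF2*, a growth factor of granulocytes and macrophages, had 0 counts after overexpression and 62 after siRNA, so that it was at least 21.3-fold higher after siRNA if the overexpression group is set to 3 counts. It too was graded by its means only. The 3 changed genes of the list that were not graded were *BIRC3*, *CCL2* and *CCL5*, each with the control mean below both, though that of *CCL2* lay between without control replicate 1. *CCL2* was at 388, 398 and 451 CPM in the control and 421, 407 and 433 CPM after overexpression, which overlap, and at 1432, 1565 and 1702 CPM after siRNA.

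Called genes of the prostaglandin E2 pathway were graded, in both directions. Of 12 tested, 5 were higher after siRNA and 2 after overexpression, against 9.17% and 9.54% of all tested genes, all 7 were graded, and the median log2 difference was -0.49. This lipid is made in sequence by a phospholipase that frees arachidonic acid, a cyclooxygenase and a terminal synthase. The phospholipase gene *PLA2G4A* stood at 21.9, 22 and 20.3 CPM after overexpression, 40.3, 34.4 and 49.2 CPM in the control and 435, 402 and 393 CPM after siRNA. All 9 libraries were in order, and the log2 difference was -4.26 (standard error 0.0999, adjusted p = 2.95e-17 from edgeR). The constitutive cyclooxygenase gene *PTGS1* had 9.78, 10.2 and 11.1 CPM after overexpression, 33.5, 33.3 and 38.9 CPM in the control and 348, 354 and 373 CPM after siRNA. Its step from control to overexpression, -1.77, was the largest of the 5 genes higher after siRNA (-5.11 in all). *PTGS2*, the inducible cyclooxygenase, had 29.6, 27.2 and 26.7 CPM after overexpression, 43.7, 39 and 74.8 CPM in the control and 2352, 2175 and 2299 CPM after siRNA, with control replicate 3 again the highest control library (log2 difference -6.35, standard error 0.274). The synthase gene *PTGES* (-2.87) and *ABCC4* (-3.58), a transporter that exports prostaglandins, were graded in every library as well. The other synthase genes, *PTGES2* (0.40) and *PTGES3* (-0.05), were not called, and *PLAAT3* and the receptor gene *PTGER3* were the 2 on the overexpression side.

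*PLAAT3* was graded by its means, but almost all of its difference lay between siRNA and control. It stood at 5.37, 5.03 and 5.12 CPM after siRNA, 9.75, 11.8 and 10.7 CPM in the control and 11.6, 10.8 and 10.9 CPM after overexpression. The siRNA libraries were below the rest, and the control and overexpression libraries overlapped. The log2 difference was 1.10 (standard error 0.112, adjusted p = 2.24e-08 from edgeR), with 1.06 between siRNA and control and 0.04 between control and overexpression. The control remained between in 8 of 9 fits that left out a library. *PLAAT3* overlaps an antisense gene and the use of strand in counting is not given in the sources used here, so reads of both strands cannot be told apart. *PTGER3* (uncertain) had 0.239, 0.42 and 0 CPM after siRNA, 0.344, 0.759 and 0.758 CPM in the control and 2.36, 1.78 and 1.62 CPM after overexpression (log2 difference 3.10, or 3.94 without siRNA replicate 2). Of 20 tested genes published as targets of the family of miRNAs that share the seed of miR-16 and miR-503, *PLAAT3*, *BCL2* (2.10), which blocks apoptosis, and *CCND2* (1.02), a cyclin of early cell cycle, were graded and higher after overexpression. *VEGFA*, the growth factor of vessels, was graded and higher after siRNA (-2.0), and 16 were not called, a share near that of all tested genes. *CCND2* was just over 2-fold and fell to 0.99 and 0.97 without overexpression replicate 3 or siRNA replicate 3.

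**Figure D3:**
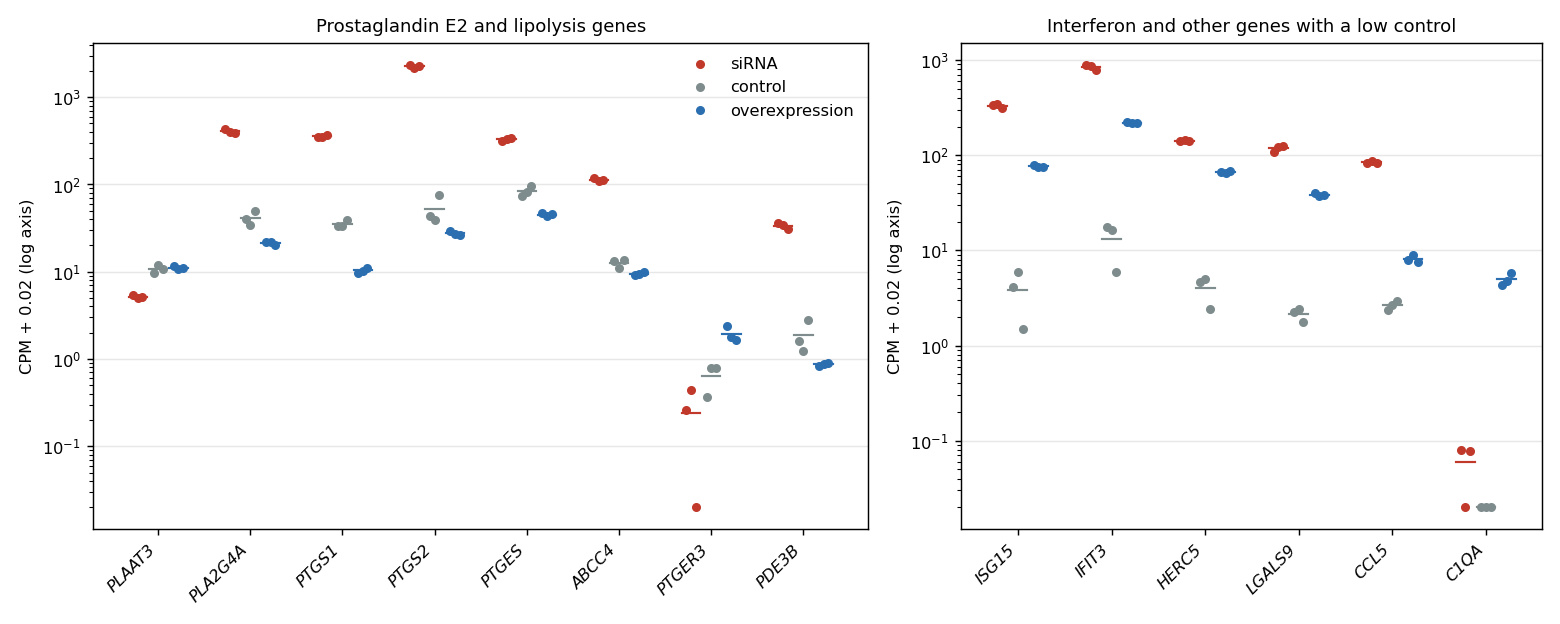
Level in each library, as CPM + 0.02 on a log axis (y), of genes of prostaglandin E2 and lipolysis (left) and of genes with the control below both groups (right), with 1 point per library and a bar at the group mean. *PTGS2*, *PLA2G4A* and *PTGS1* fall from siRNA through control to overexpression, while *ISG15* and *IFIT3* are lowest in the control and highest after siRNA.

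Markers of the fat cell were called in both directions. Of 16 tested adipocyte markers, 5 were higher after overexpression and 4 after siRNA, against 9.54% and 9.17% of all tested genes, 7 were not called, and the median log2 difference was -0.11. *CEBPA*, a driver of fat cell fate, had 6.63, 6.41 and 3.84 CPM after siRNA, 13.4, 15.9 and 16.9 CPM in the control and 17.7, 18.1 and 17 CPM after overexpression (log2 difference 1.65, standard error 0.141), with all 9 libraries in order although control replicate 3 came close to overexpression. *FABP4*, a fatty acid carrier, was at 7.34, 6.41 and 5.01 CPM after siRNA, 7.63, 7.53 and 8.34 CPM in the control and 13.4, 13.6 and 13.4 CPM after overexpression (1.11, or 0.97 without siRNA replicate 3), with the control nearer to siRNA. *CIDEC*, a protein of the lipid droplet, was graded at low levels (1.46), and so, by its means only, was the droplet coat gene *PLIN1*, with 2 counts after siRNA and 42 after overexpression, a ratio of 20.4 (interval 5.31 to 174). On the siRNA side the early factors *CEBPB* (-1.24, by its means only) and *CEBPD* and the enzyme gene *GPD1* (uncertain) were graded, and *GPD1* fell under 2-fold without overexpression replicate 2, overexpression replicate 3 or siRNA replicate 3. *PPARG*, the master factor of fat cells, was highest in the control, at 7.63, 7.65 and 7.06 CPM against 5.46, 5.85 and 5.28 CPM after overexpression and 1.67, 1.86 and 1.51 CPM after siRNA, and *LPL*, lipoprotein lipase, was lowest there. *ADIPOQ*, a defining marker of mature fat cells, had 11 counts in the control group, 9 after overexpression and 0 after siRNA, too few to be tested, although the labels call the cells primary adipocytes.

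Genes of fat synthesis and oxidation were called about as often as all tested genes, of which 18.7% were. Of 20 tested genes of fatty acid and triglyceride synthesis 4 were called, and *ELOVL6*, which lengthens fatty acids (1.5), and *ACACB* (1.07), an acetyl-CoA carboxylase, were graded and higher after overexpression, and 0 were graded in the other direction. *ELOVL6* was graded by its means only. Of 22 tested genes of fatty acid oxidation 4 were called. The dehydrogenase genes *ACADL* (1.17) and *ACADM* (1.11) were graded and higher after overexpression. *PPARGC1A*, a coactivator of mitochondrial genes, was graded by its means only and higher after siRNA (-1.83). Its counts summed to 31 in the control and 27 after overexpression. Of 10 tested genes of lipolysis and phospholipases, 3 were higher after overexpression (3 graded) and 3 after siRNA (2 graded), against 9.54% and 9.17% of all tested genes. The median log2 difference was 0.17, and 4 were not called, *ABHD5*, *LIPE*, *PLIN2* and *PNPLA2*. The monoglyceride lipase gene *MGLL* had 5.19, 5.15 and 6.46 CPM after siRNA, 15.3, 17.3 and 18.1 CPM in the control and 33.4, 32.9 and 30.03 CPM after overexpression, in order in every library (log2 difference 2.52, standard error 0.105). *PDE3B*, the phosphodiesterase through which insulin restrains lipolysis, ran the other way, at 0.805, 0.86 and 0.87 CPM after overexpression, 1.61, 1.23 and 2.8 CPM in the control and 35.9, 34.2 and 31 CPM after siRNA (-5.31, standard error 0.174).

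Most genes of cholesterol synthesis were not called. Of 21 tested, 5 were higher after overexpression and 1 after siRNA, against 9.54% and 9.17% of all tested genes, and the median log2 difference was 0.46. *MSMO1*, an enzyme of the late pathway, was at 40.8, 35.5 and 41.8 CPM after siRNA, 68.6, 57.1 and 50.3 CPM in the control and 81.3, 82.2 and 82.8 CPM after overexpression, with no overlap (log2 difference 1.06, standard error 0.0892, adjusted p = 2.78e-09 from edgeR), and fell to 0.99 without siRNA replicate 2. Its control position was 0.542, against 0.396 for *HMGCS1* (uncertain) and 0.856 for *SQLE*, which encode enzymes of earlier steps. *MVK* had the control above both. Of 32 tested cell cycle genes, 3 were higher after overexpression and 1 after siRNA, against 9.54% and 9.17% of all tested genes. Another 28 were not called, and the median log2 difference was -0.08. *CDK1* was the gene higher after siRNA, with the control below both. The replication gene *MCM6* (1.07), *CCND2* and *CDC25C* (1.12) were graded and higher after overexpression, but *CDC25C* was graded by its means only, had about 1 CPM and fell under 2-fold without overexpression replicate 1, siRNA replicate 1 or siRNA replicate 2. Of 25 tested stress response genes, 3 were higher after overexpression and 1 after siRNA, against the same shares of all tested genes. Another 21 were not called, and the median log2 difference was 0.11. The graded genes were *ASNS* (1.2), *TRIB3* (1.11) and *DDIT4* (-1.01, or -0.98 without siRNA replicate 2). *ATF5* was higher after overexpression, with the control above both.

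Genes with the control midway gave the nearest approach to even steps. They were the 5 in each direction with a position closest to 0.5 among genes graded in every library with at least a 4-fold difference and a mean of at least 5 CPM. *HTR7*, a serotonin receptor, had 1.07, 1.86 and 2.8 CPM after siRNA, 7.52, 6.89 and 5.89 CPM in the control and 19.1, 18.1 and 18.2 CPM after overexpression, with steps of 1.82 and 1.45. *FRMPD3* (3.67), *C13H3orf70* (2.67), the tumour suppressor target *TP53I11* (2.48) and the peptidase gene *NLN* (2.12) were the others on this side. In the other direction *CBS*, an enzyme of cysteine synthesis, had 25.5, 23.5 and 24.4 CPM after overexpression, 56.1, 56.6 and 68.6 CPM in the control and 139, 166 and 136 CPM after siRNA, with steps of -1.30 and -1.28. *AGT*, the angiotensin precursor, which fat tissue secretes, was at 33.7, 35.8 and 33.5 CPM after overexpression, 77.1, 91.2 and 93.1 CPM in the control and 225, 235 and 183 CPM after siRNA (-2.64, standard error 0.0928). The surface protein gene *CDCP1* (-2.06) and the uncertain genes *FAM20A* (-2.68) and *INAFM1* (-2.18) completed the group.

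A few graded genes changed mainly between overexpression and control. With all 9 libraries in order and a position under 0.25, there were 7 in each direction, chosen after their values were seen. Complement *C3* was the largest of them on the siRNA side, at 1.55, 1.66 and 1.68 CPM after overexpression, 31.2, 30.1 and 31.7 CPM in the control and 71.1, 77.4 and 70.6 CPM after siRNA. The overexpression libraries were far below the others, and of its log2 difference of -5.48 (standard error 0.101) -4.24 lay between control and overexpression and -1.24 between siRNA and control. *POSTN*, a matrix protein, had steps of -0.81 and -0.25, and *ADAMTSL1* had steps of -1.02 and -0.29. On the overexpression side they included *UNC45B*, a chaperone of muscle myosin, at 0.358, 0.18 and 0.349 CPM after siRNA, 0.746, 0.7 and 0.408 CPM in the control and 3.11, 3.15 and 3.13 CPM after overexpression (3.37), the nuclear receptor gene *NR5A2*, with 2 counts in all after siRNA, and the protease gene *ADAMTS17* (1.02, or 0.99 without overexpression replicate 1 or siRNA replicate 3).

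**Figure D4:**
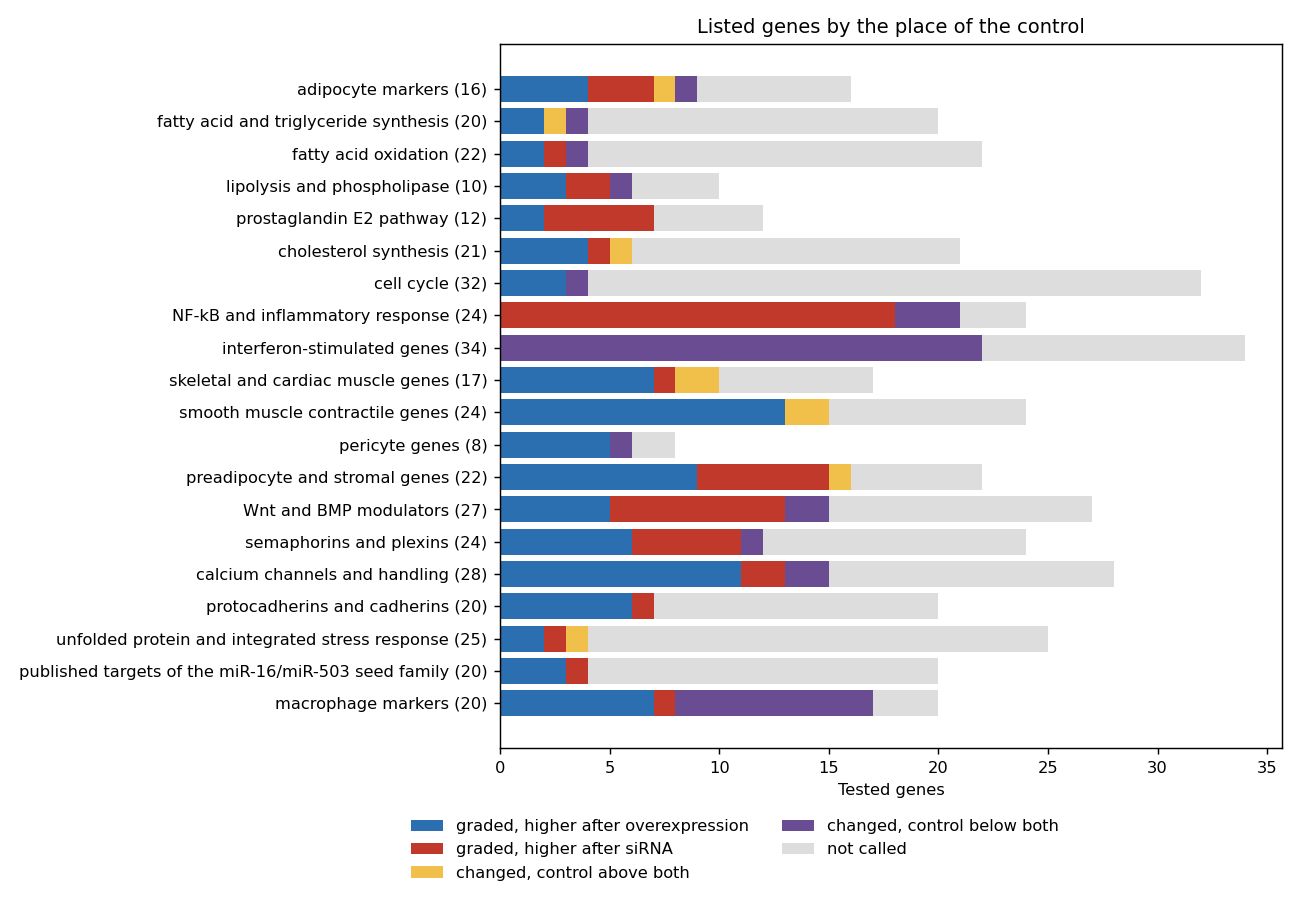
Number of tested genes (x axis) of each of 20 gene lists (y axis, with the number tested in brackets) by call and by the place of the control. NF-kB genes are mostly red (graded, higher after siRNA), smooth muscle genes mostly blue (graded, higher after overexpression), and the 22 changed interferon-stimulated genes are all purple (control below both).

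The changed genes outside the order were led by the interferon response. Of 34 tested interferon-stimulated genes, 22 were higher after siRNA than after overexpression, against 9.17% of all tested genes, and 0 were higher after overexpression. In all 22 the control was below both, as in 297 of all 1167 genes higher after siRNA, so that none was graded. Their medians over the 34 genes were -1.48 for overexpression against siRNA, 2.62 for overexpression against control and -3.90 for control against siRNA. *ISG15*, a ubiquitin-like antiviral protein, had 4.13, 5.95 and 1.46 CPM in the control, 78.9, 75.6 and 76 CPM after overexpression and 341, 343 and 312 CPM after siRNA. Control replicate 3 was the lowest library, and the difference between overexpression and siRNA was -2.11 (standard error 0.188). *IFIT3* (-1.96), *HERC5* (-1.10) and *LGALS9* (-1.63) had the same shape. The control lay above both groups in *MFAP4*, a microfibril protein, at 475, 534 and 514 CPM against 322, 325 and 321 CPM after overexpression and 103, 121 and 122 CPM after siRNA, and in *TMEM119*, *SLC2A4RG* and *PPM1L* (uncertain). *SLC2A4RG* fell under 2-fold without siRNA replicate 1 or siRNA replicate 3.

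Markers of other cell types were examined beside the graded genes. Of 20 tested macrophage markers, 16 were higher after overexpression and 1 after siRNA, against 9.54% and 9.17% of all tested genes, 7 of the 16 were graded by their means and in 9 the control was below both. The summed level of the list was 97.5 to 101.7 CPM after siRNA, 116.7 to 123.1 CPM in the control and 209.5 to 214.9 CPM after overexpression. *C1QC*, a chain of complement C1q, had 351 counts after overexpression, 1 in the control and 0 after siRNA, and was at least 113.7-fold higher after overexpression with the siRNA group set to 3 counts. *MSR1*, the scavenger receptor, had 90, 1 and 0 counts and was at least 29.2-fold higher on that basis. Both were graded by that single control count, and each lost its place in 1 of 9 fits with a library left out, as did *LAPTM5* (4.06). *ADGRE1*, a defining surface marker, had 27 counts after overexpression and 0 in both other groups, and *AIF1* and *MARCO* had 27 and 30 counts after overexpression against 6 and 0 after siRNA. *MRC1*, the mannose receptor, was in order in every library, at 0, 0.12 and 0.116 CPM after siRNA, 0.631, 0.759 and 0.875 CPM in the control and 3.39, 3.33 and 2.78 CPM after overexpression. *CD68* (2.45) had overlapping siRNA and control libraries. Of 4 tested endothelial markers only *FLT1*, a receptor of *VEGFA*, was called (-3.05, higher after siRNA and graded), and the list summed to 71.8 to 79.1 CPM in the control, 54.9 to 62.6 CPM after overexpression and 93.3 to 109.1 CPM after siRNA. *CDH5*, *KDR*, *TEK* and *VWF*, defining genes of endothelium, had too few counts to be tested. Whether other cells in the cultures had a part in the graded genes was not tested.

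The remaining genes that the study had singled out were placed by the same rule. *TFPI*, an inhibitor of blood coagulation, had 0.173, 0 and 0.116 CPM after overexpression, 0.402, 0.35 and 0.7 CPM in the control and 11.9, 9.05 and 11.5 CPM after siRNA, in order in every library (log2 difference -6.71, or -7.38 without overexpression replicate 1). *ADGRB1*, an adhesion receptor, was graded in every library on the overexpression side (3.07, standard error 0.267). *ARG1*, arginase, was graded by its means only (-6.0), and so was the adenosine receptor gene *ADORA1* (1.41), at under 1 CPM. *ABL2*, a tyrosine kinase, had the control below both (-2.14). *CD36* (uncertain), a fatty acid transporter, was just under 2-fold (log2 difference 0.996) and therefore not called, with the control lowest. It passed 2-fold without siRNA replicate 3 (1.08), overexpression replicate 2 (1.03) or control replicate 1 (1.003). *TREM2* had 25 counts after overexpression and 1 after siRNA, *NOS3* had 1 and 4 counts and *ADCY1* had 8 and 22, and none of these was tested.

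At the edge of the rule the control mean coincided with the overexpression mean. Just inside were *SLIT3*, a guidance ligand, with 132, 135 and 135 CPM in the control and 139, 133 and 131 CPM after overexpression, and *RFESD* on the overexpression side, and *GDNF*, a survival factor of neurons, with 9.07, 8.58 and 7.82 CPM in the control and 8.63, 8.03 and 8.75 CPM after overexpression, and *SMC5* on the siRNA side. Just outside were *TUBA1A* (uncertain) and *FERMT1*, and *PLD1* and *C12H17orf100* (uncertain). In these 8 genes the control and overexpression libraries overlapped, and the class held in 5 to 7 of 9 fits that left out a library. Each of the 8 was changed between overexpression and siRNA, with log2 differences from -2.17 to 2.56.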

How the data were processed

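The 9 libraries were grouped by their labels. Reads had been aligned with HISAT, and the authors deposited estimated counts of 16562 genes beside FPKM values, which are corrected for gene length and depth and served only an alternative. For the counting tool, build, annotation, strand and test, the sources used here give nothing. The methods describe oligo(dT) priming and the labels removal of ribosomal RNA. Of the estimated counts the authors deposited, 5.38% were not whole, and all were rounded.

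Counts were tested in R 4.3.3 with edgeR 4.0.16 (TMM, default filterByExpr, robust quasi-likelihood F test) in 1 fit of all 9 libraries, with Benjamini-Hochberg adjustment over 12721 genes. The biological coefficient of variation was 0.0607. Standard errors are the absolute log2 fold change over the square root of F. Steps against the control come from the same fit. The procedure was tested on simulated data. Where a group had 0 counts it was set to 3 counts for a bound on the fold, and sums of 1 to 3 counts gave a ratio with a 95% interval for counting error.

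Named were the 8 largest differences in each direction among genes graded in every library (with a symbol and a mean of at least 5 CPM), the 5 nearest a position of 0.5 with at least a 4-fold difference, from each list up to 4 graded members that changed most, the 4 genes farthest outside in each class with the control outside, the genes the study named, and the 2 genes on each side of the rule's edge in each direction. Other list members were named after their values were seen, to account for the classes of a list. Members and lists were chosen with earlier results of these data known. The lists drew partly on terms that the study found enriched in these libraries, so their directions are not independent evidence. Gene order came from RefSeq annotation of Sscrofa11.1, which held 97.3% of the tested symbols and was used for names and neighbours only. Alternatives were DESeq2 1.42.0, no TMM, no filter, a stricter filter, the 2 compared groups only, the replicate number as a block, limma 3.58.1 on log2(FPKM + 1), other fold thresholds, stricter orders, medians for means, and each library left out. The overexpression libraries summed to 1 were added after the data were seen. Promoter sequences were not used here. Some genes that the rule names are not reported here.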

Additional observations from a re-analysis of the deposited data

How the results depend on the processing

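Counts are given in the order changed, higher after overexpression, higher after siRNA, graded in each of these directions, control above both and control below both. With limma on log2(FPKM + 1) they were 1266, 576, 690, 499, 507, 80 and 180 (the cause was not tested). A 4-fold threshold gave 910, 492, 418, 410, 335, 61 and 104, and no fold threshold gave 8482, 4173, 4309, 2695, 2598, 1551 and 1638. With all 9 libraries in order 619 and 493 genes were graded, and with the control 1.5-fold from both means 220 and 191. Without 1 library the counts lay between 2394 and 2460, 1216 and 1267, 1176 and 1208, 972 and 1028, 840 and 884, 217 and 244, and 323 and 386, and the median positions between 0.703 and 0.736 and between 0.711 and 0.760. The replicate number as a block gave 2374 changed genes, with 982 and 836 graded. Same-numbered overexpression and siRNA libraries did not deviate together (correlations -0.050, -0.031 and 0.020), so the numbers were not taken as pairs. In some genes the overexpression libraries lay closer together than the others. Standard deviations after overexpression, in the control and after siRNA were 500, 2369 and 959 CPM for *COL1A1* and 4.17, 52.9 and 29.6 CPM for *DDIT4*. In *CD248* they were 17.4, 18.7 and 4.06 CPM. Whether the overexpression libraries were separate cultures was not tested. With the overexpression libraries summed to 1, an alternative chosen after the data were seen, 2461 genes changed and 1008 and 880 were graded. All counts stayed within 1.5 times under DESeq2, no TMM, no filter, the stricter filter, the 2 groups only and medians for means. These alternatives were run for 150 tested genes, the 115 of the naming rule and 35 others of the text, and the only one to turn its direction was *PTGES3*, which was not called (log2 difference -0.05, or 0.04 without siRNA replicate 3). Of the 150, 57 lost their call at 4-fold and 32 with limma on FPKM, 8 lost it without 1 library (*ADAMTS17*, *CCND2*, *CDC25C*, *DDIT4*, *FABP4*, *GPD1*, *MSMO1* and *SLC2A4RG*), and *ACTC1*, *CD36* and, with no fold threshold, *PTGES2* gained one. Depth limits the folds of genes with few counts, such as *PLIN1*, *ACTA1* and *CSF2*, and the place in the order of *C1QC* and *MSR1*, which rested on 1 control count.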

Other observations

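Graded genes were also placed by their neighbours in the RefSeq order of the tested genes of Sscrofa11.1. Of 955 graded genes higher after overexpression with a place in that order, 281 (29.4%) lay beside another of the same direction, while 14.6% of all 12382 placed genes lay beside one. Of 825 graded genes higher after siRNA, 207 (25.1%) lay beside another, against 12.6% of all placed genes. Shared reads between overlapping neighbours were not tested. Runs of at least 3 neighbours numbered 19 and 15, and the longest held 6 genes on the siRNA side, with *CXCL2*, which encodes a neutrophil chemokine, *MTHFD2L*, and *EREG* and *AREG*, which encode ligands of the EGF receptor, among them. Other runs on the siRNA side were *C3*, *CD70*, *TNFSF9* and *TUBB4A*, the calcium-binding genes *S100A4*, *S100A6*, *S100A8* and *S100A12*, and *BTG1* with the proteoglycan genes *DCN* and *LUM*. On the overexpression side *PKD2*, *SPP1* and *IBSP* were neighbours, the latter pair encoding bone matrix proteins, as were *LMCD1*, *OXTR*, the oxytocin receptor gene, and *RAD18*. The runs were found after the values were seen, and no test was made of them.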
